A study of Mus musculus with 8 samples.

Results

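The S100 proteins described here are the products of 10 genes of mouse chromosome 3: S100a1, S100a3, S100a4, S100a6, S100a7a, S100a8, S100a9, S100a10, S100a14 and S100a16. They were taken from the gene count table by their Ensembl identifiers, which release 39 of the mouse GENCODE annotation (build GRCm39) pairs with these symbols. They are 10 of the 55416 genes in the table, and all 10 were among the 13147 genes that passed the filter on low counts. RNA was sequenced from the back epidermis of mouse pups at postnatal day 4, with 4 libraries per genotype. RoraEKO pups came from a cross of the Rora flox/flox strain, in which the gene for the nuclear receptor RORα carries loxP sites, with a K14-Cre line on a B6N background, in which the promoter of KRT14, a keratin of basal keratinocytes, drives the recombinase. Control pups were littermates, labelled WT, and the sources used here do not state which floxed or Cre alleles each of them carried. Dermis was removed by peeling after brief heating of the skin, and no sorting of cells is described.

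Each library is named here by the letter and number of its title. The control libraries were A1, B1, C1 and C6, and the RoraEKO libraries were A3, B4, C2 and C3, so that letters A and B each held 1 library per genotype and letter C held 2. What the letter stands for is not given in the sources used here, and pooling of mice is not described. The mice per genotype were as many as the libraries, so each library is taken here as 1 mouse. Library totals ran from 17286903 to 26705533 counts. The level of Rora did not separate the genotypes (log2 fold change -0.11, with an adjusted p of 0.877, quasi-likelihood test of edgeR), and the gene counts do not resolve the deleted exon, so genotypes are taken from the labels. Xist was at 416 and 527 CPM (counts per 1000000, scaled) in control C1 and control C6 and did not exceed 0.0546 CPM elsewhere. The keratinocyte keratins Krt1, Krt10, Krt5 and Krt14 were present in all 8 libraries, whereas the summed level of 2 endothelial markers was 1.98 CPM at most, that of 6 dermal fibroblast markers 10.4 CPM at most and that of 4 skeletal muscle markers 9.06 CPM at most. The summed level of 5 melanocyte markers was 24.5 to 55.7 CPM in the controls and 16.9 to 32.5 CPM in RoraEKO. None of the 5 passed the cutoffs, 3 had an unadjusted p under 0.05 (18.2% of all genes), and the genotypes did not overlap in Pmel and Sox10 (12.9% of all genes). Dct passed the cutoffs in 1 of 24 alternatives.

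S100 proteins are small proteins with a pair of EF-hand loops that bind calcium. They mostly act as dimers that open a hydrophobic face on binding calcium and then dock onto target proteins such as annexins and the cytoskeleton. Most of their genes lie together in and beside the epidermal differentiation complex, the gene cluster that also codes for loricrin, filaggrin and the small proline-rich proteins of the cornified envelope. In skin they are known as components of keratinocytes and of the hair, and several are released from stressed or inflamed epidermis, where S100A8 and S100A9 pair as calprotectin, a metal-binding antimicrobial complex that also signals through RAGE and Toll-like receptor 4.

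Upstream sequences were taken from RefSeq on build GRCm38.p6, with 12 transcription starts for 8 of the 10 genes. No entry was found for S100a10 and S100a14. The first pair shown belongs to S100a8 and S100a9, whose products form calprotectin and whose levels did not follow each other closely across the 8 libraries (Pearson r of log2 CPM 0.378). Neither of these windows of 250 bases before the start held AGGTCA, the half-site bound by RORα, or TGANTCA, the AP-1 motif, on either strand.
S100a8, chr3:90668821-90669070, plus strand: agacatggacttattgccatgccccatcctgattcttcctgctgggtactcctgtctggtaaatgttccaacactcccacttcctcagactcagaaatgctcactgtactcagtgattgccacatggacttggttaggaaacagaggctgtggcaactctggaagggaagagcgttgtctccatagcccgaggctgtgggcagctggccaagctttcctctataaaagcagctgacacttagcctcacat
S100a9, chr3:90695722-90695971, minus strand: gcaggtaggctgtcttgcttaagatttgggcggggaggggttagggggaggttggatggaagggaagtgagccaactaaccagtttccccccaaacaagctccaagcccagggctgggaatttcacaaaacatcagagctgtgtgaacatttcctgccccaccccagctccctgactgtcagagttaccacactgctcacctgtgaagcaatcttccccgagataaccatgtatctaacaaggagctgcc
The second pair is shown because each sequence held AGGTCA close to the start, marked in capitals, with its reverse complement TGACCT in the S100a3 window. The motif began 48 bases before the start in S100a3 and 24 bases before the start in S100a4.
S100a3, chr3:90599964-90600213, plus strand: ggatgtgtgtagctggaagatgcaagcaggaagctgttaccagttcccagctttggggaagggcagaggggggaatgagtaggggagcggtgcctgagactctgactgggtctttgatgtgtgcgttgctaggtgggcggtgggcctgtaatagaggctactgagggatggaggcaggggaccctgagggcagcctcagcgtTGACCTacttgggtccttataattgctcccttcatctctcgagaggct
S100a4, chr3:90603520-90603769, plus strand: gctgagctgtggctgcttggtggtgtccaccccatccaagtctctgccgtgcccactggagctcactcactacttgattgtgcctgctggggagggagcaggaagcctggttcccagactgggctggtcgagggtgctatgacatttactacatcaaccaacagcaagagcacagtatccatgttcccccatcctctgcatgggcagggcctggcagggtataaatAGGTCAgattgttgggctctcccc
Among the 12 windows, 4 held AGGTCA, belonging to 3 genes (S100a3 at a pair of its starts, S100a4 and S100a16), and 1 window of S100a16 held TGANTCA. In all 32851 promoter windows of the same length the shares were 14% for AGGTCA and 6.75% for TGANTCA. Such matches are a description of the letters in the window and do not show binding.

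Genotype was compared first. None of the 10 S100 genes passed the cutoffs, which were 1.5-fold and 0.05 for the p adjusted by Benjamini-Hochberg, in the quasi-likelihood test of edgeR, against 5.51% of all genes tested. At an unadjusted p under 0.05 there was 1 of 10, S100a9, against 18.2% of all genes. With DESeq2 the count was also 1, again S100a9, where 7.84% of all genes were called. The log2 fold change, RoraEKO minus control, was above 0 in 2 genes (S100a8 and S100a9) and below 0 in 8, with a median of -0.11, and over all genes tested the median was -0.04. The direction of 6 of these 10 genes rested on differences of 0.23 or less on the log2 scale that turned under at least 5 of 24 alternative settings each.

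**Figure D1:**
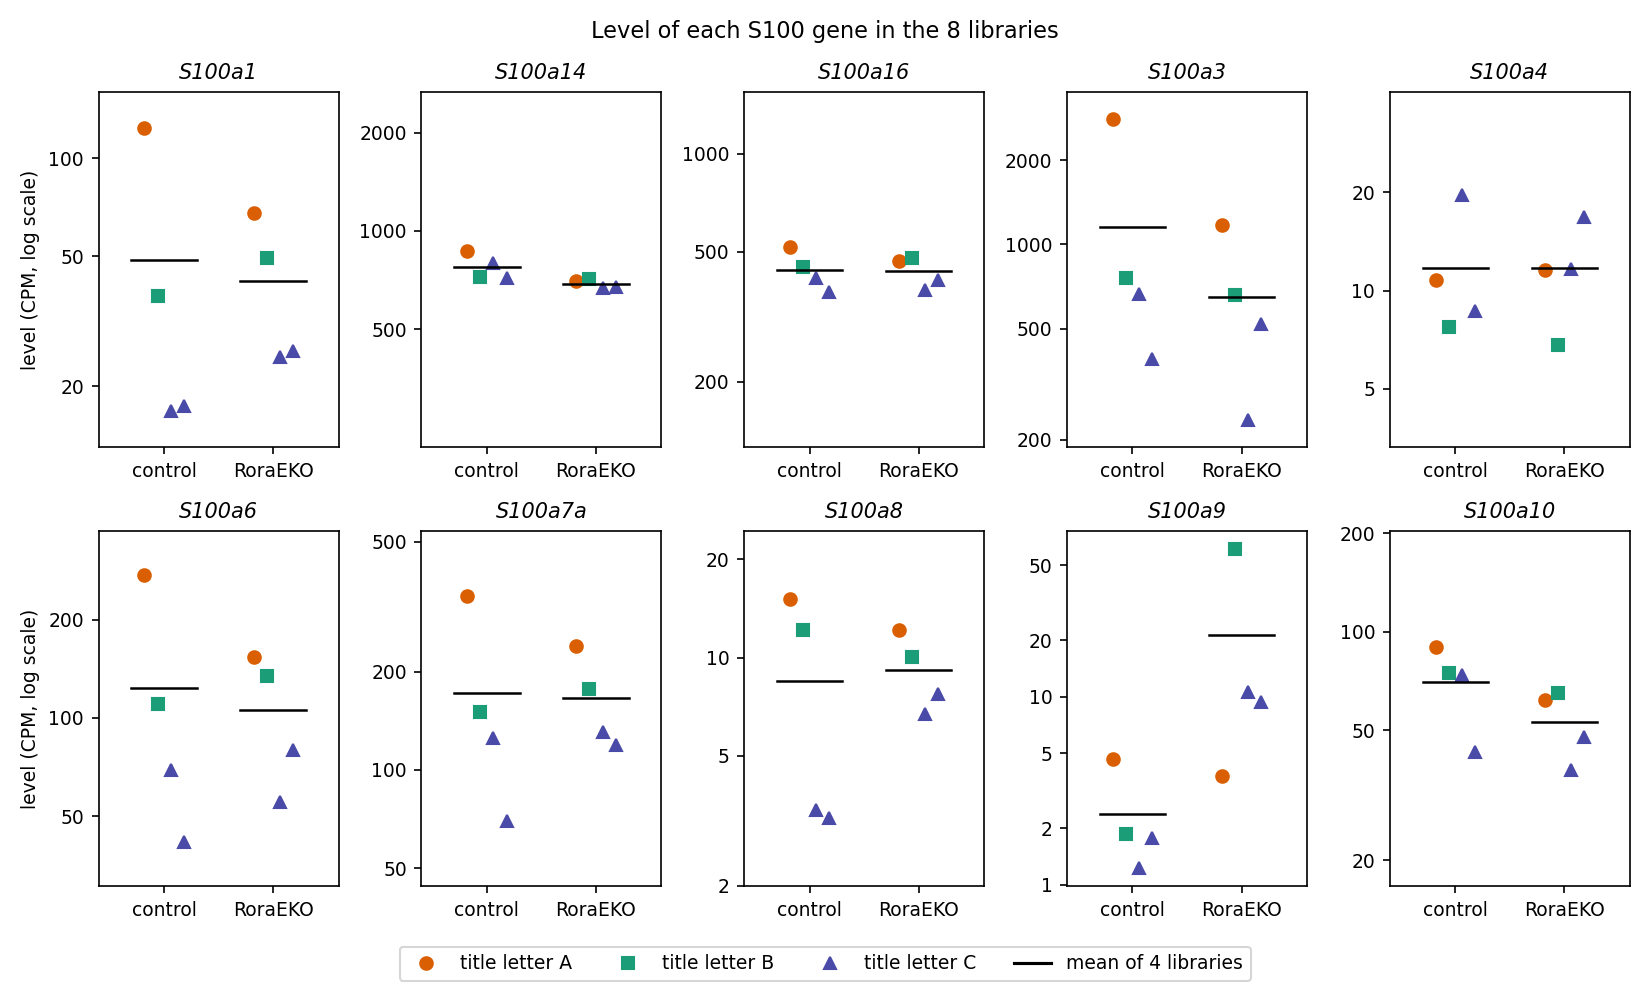
Level of the 10 S100 genes in each library, in CPM on a log axis with its own range in each panel, by genotype; marker shape and colour give the letter of the library's title and black lines the mean of 4 libraries. The RoraEKO library B4 stands at 60.9 CPM in S100a9, control A1 is the highest library in 8 of the 10 genes, all but S100a4 and S100a9, and the genotypes are apart only in S100a14.

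The calprotectin genes were at low levels. S100a9 (ENSMUSG00000056071, 90599931 to 90603071, minus strand, GRCm39), the partner without which S100A8 protein is unstable, was at 4.68, 1.86, 1.23 and 1.76 CPM in controls A1, B1, C1 and C6 and at 3.78, 60.9, 10.6 and 9.34 CPM in RoraEKO A3, B4, C2 and C3. RoraEKO B4, C2 and C3 were above every control library, RoraEKO A3 was below control A1, and so the genotypes overlapped. The means were 2.38 ± 1.56 CPM (SD, n = 4) and 21.2 ± 26.7 CPM (SD, n = 4), a log2 fold change of 3.14 (standard error, SE, 0.921) that did not pass the cutoffs in the quasi-likelihood test of edgeR (adjusted p = 0.061).

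Whether S100a9 was called depended on the test and on single libraries, and it passed the cutoffs in 8 of 24 alternatives. Its adjusted p was 0.00706 with DESeq2, 0.00236 with the likelihood ratio test of edgeR, which called 7.67% of all genes, and 0.003 with its exact test, which called 7.51%. It was 0.0204 when all genes with at least 1 count were tested (quasi-likelihood test of edgeR, 3.35% called), while all 24 alternatives gave adjusted p from 0.00236 to 0.408. Without RoraEKO B4 the log2 fold change was 1.72 (adjusted p = 0.11, quasi-likelihood test of edgeR), and so 1 library carried much of its size. Without control A1 it was 3.71 (adjusted p = 0.0474, 6.77% of genes called) and without RoraEKO A3 it was 3.55 (adjusted p = 0.0299, 5.18% called). Leaving out both letter A libraries gave 4.06 (adjusted p = 0.0225, 6.3% called). Leaving out both letter B libraries gave 1.62 (adjusted p = 0.267), and Xist as a covariate gave 2.62 (adjusted p = 0.236), in the same test. The sign stayed positive in all 24 alternatives, with log2 fold changes from 1.62 to 4.06.

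S100a8 (ENSMUSG00000056054, 90567118 to 90578128, plus strand) was at 15.1, 12.1, 3.41 and 3.23 CPM in controls A1, B1, C1 and C6. In RoraEKO A3, B4, C2 and C3 it was at 12.1, 10.1, 6.70 and 7.74 CPM. The RoraEKO libraries lay inside the range of the controls, and the low pair was control C1 and control C6. The means of 8.47 ± 6.07 and 9.16 ± 2.43 CPM (SD, n = 4 each) gave a log2 fold change of 0.11 (SE 0.611, adjusted p = 0.949, quasi-likelihood test of edgeR).

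The ratio of S100a9 counts to S100a8 counts within a library was 0.310, 0.153, 0.361 and 0.547 in controls A1, B1, C1 and C6. It was 0.312, 6.05, 1.58 and 1.21 in RoraEKO A3, B4, C2 and C3. S100a9 counts were fewer than S100a8 counts in all 4 control libraries and in RoraEKO A3, and more numerous in the other 3 RoraEKO libraries. RoraEKO B4 had 1482 counts of S100a9 and 245 of S100a8, so this ratio was not limited by depth.

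**Figure D2:**
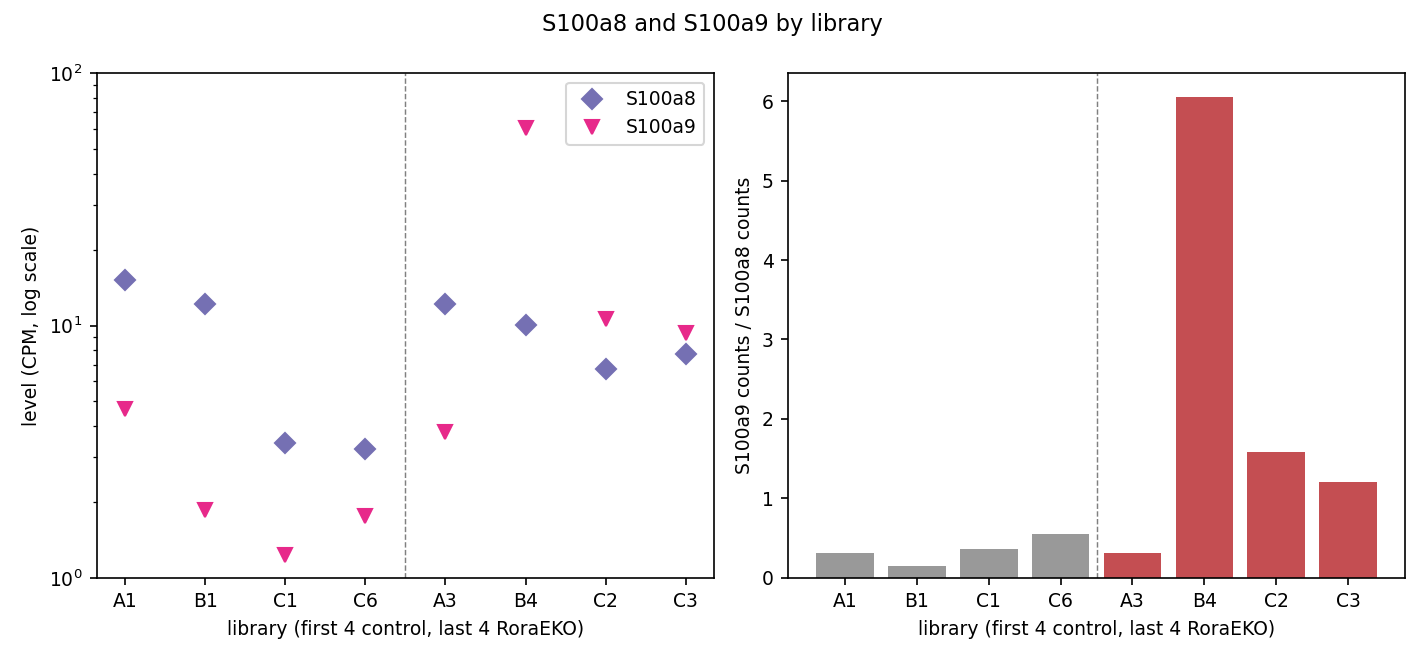
Levels of S100a8 and S100a9 in each library (left, CPM on a log axis) and the ratio of their counts (right, linear axis from 0; gray control, red RoraEKO), each marker or bar being 1 library. The ratio is between 0.153 and 0.547 in the controls, 0.312 in RoraEKO A3 and 6.05 in RoraEKO B4.

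Neutrophils carry both calprotectin genes at high levels, so their other markers are given beside these values. The summed level of 11 neutrophil markers was 2.68 to 5.82 CPM in the controls and 2.96 to 8.0 CPM in RoraEKO, and in RoraEKO B4, the library with the most S100a9, it was 2.96 CPM. Itgam, which other myeloid cells also express, made up 2.34 CPM of this sum in RoraEKO B4, 4.77 CPM of 5.82 CPM in control C6 and 3.90 CPM of 8.0 CPM in RoraEKO C2. The highest sum was that of RoraEKO C2, where S100a9 was at 10.6 CPM. Elane was at 0 counts in all 8 libraries. Mpo, Camp, Ly6g and Mmp8 had 4, 3, 2 and 2 counts in RoraEKO C2 and 0 counts in the other 7 libraries, RoraEKO B4 included. Ngp and Csf3r were also highest in RoraEKO C2, at 33 and 20 counts, against 4 and 1 counts in RoraEKO B4. The part of neutrophils in the S100a9 level was not tested in any library. Only Itgam of the 11 passed the filter on low counts (log2 fold change -0.18). RoraEKO B4 was also the library with the most Krt5 (371 CPM) and Krt14 (706 CPM), keratins of basal keratinocytes, whose sum was 133 to 418 CPM in the controls and 174 to 265 CPM in RoraEKO C2 and C3 and 222 CPM in RoraEKO A3. The part of basal keratinocytes in the S100a9 level was not tested, and in bulk samples fewer cells of a type and less RNA per cell cannot be told apart.

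The tested genes whose log2 CPM was most like that of S100a9 over the 8 libraries were Ier3, an immediate early response gene (Pearson r 0.985), Nod2, an intracellular sensor of bacterial peptidoglycan (0.978), and Tpm2, a tropomyosin (0.978). Ier3 was at 8.93 to 19.9 CPM in the controls and at 18.2, 67.8, 31.4 and 28.4 CPM in RoraEKO A3, B4, C2 and C3, with the same order of the RoraEKO libraries as S100a9. For S100a8 the closest gene was Crnn (0.978), which codes for cornulin, a larger relative in which an S100 domain is fused to a repeat region. Crnn was followed by Krt71 (0.971) and Krt27 (0.965), keratins of the inner root sheath of the hair follicle. These correlations are descriptions over 8 libraries that differ in depth and in the levels of cell type markers, and no p is given.

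The receptors and co-receptors of extracellular S100 proteins were examined as a list of 10 genes, of which 8 passed the filter and none passed the cutoffs (quasi-likelihood test of edgeR). At an unadjusted p under 0.05 there were 2 of the 8, Cd36 and Emb, against 18.2% of all genes. Cd36, a scavenger receptor, was at 0.568 to 1.83 CPM in the controls and 1.76 to 3.41 CPM in RoraEKO (log2 fold change 1.19, adjusted p = 0.12) and passed the cutoffs in 3 of 24 alternatives. Their median log2 fold change was -0.02. Tlr4, the Toll-like receptor for calprotectin, had 3 counts or fewer in every library. Ager, which codes for RAGE, was at 3.84, 1.2, 0.757 and 0.751 CPM in controls A1, B1, C1 and C6 and at 1.31, 1.64, 0.385 and 0.899 CPM in RoraEKO A3, B4, C2 and C3 (log2 fold change -0.64, adjusted p = 0.682, quasi-likelihood test of edgeR). The largest positive value of the list was that of Cd14, the lipopolysaccharide co-receptor (1.37, adjusted p = 0.42), and the lowest that of Emb, which codes for embigin, a receptor reported for S100A8 and S100A9 (-0.67, adjusted p = 0.263). Cd14 was at 2.94 and 2.55 CPM in RoraEKO C2 and C3 and reached 1.10 CPM at most elsewhere.

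S100a3 (ENSMUSG00000001021, 90491966 to 90510009, plus strand) codes for a protein of the hair cuticle that is modified by the peptidylarginine deiminase PADI3. It was at 2802, 756, 666 and 389.9 CPM in controls A1, B1, C1 and C6 and at 1176, 659, 235 and 521 CPM in RoraEKO A3, B4, C2 and C3. The ranges overlapped, control A1 stood far above the other controls, and the highest library was 11.9 times the lowest. With means of 1153 ± 1110 and 648 ± 394 CPM (SD, n = 4 each), its log2 fold change was -0.83 (SE 0.772, adjusted p = 0.579, quasi-likelihood test of edgeR). Without control A1 the value turned to 0.10 (adjusted p = 0.935), and without both letter A libraries it was -0.35 (adjusted p = 0.684). Within each letter RoraEKO was lower, by differences of log2 levels of -1.25 in letter A, -0.20 in letter B and -0.54 in letter C. The letter C value is a difference of means, and there RoraEKO C3 (521 CPM) was above control C6 (389.9 CPM). S100a3 overlaps S100a2 and Gm42674 on the same strand, and its reads may be split between these genes in the counting.

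S100a7a (ENSMUSG00000063767, 90561324 to 90566804, plus strand), the mouse relative of human psoriasin, was at 342, 151, 126 and 69.6 CPM in controls A1, B1, C1 and C6. In RoraEKO A3, B4, C2 and C3 it was at 239, 177, 131 and 119 CPM. All RoraEKO values fell within the range of the controls (log2 fold change -0.05, SE 0.526, adjusted p = 0.981, quasi-likelihood test of edgeR). Within each letter, the RoraEKO minus control difference of log2 levels was -0.52 in letter A, 0.23 in letter B and 0.42 in letter C.

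S100a6 (ENSMUSG00000001025, 90520140 to 90535843, plus strand) codes for calcyclin, a protein of proliferating cells that binds CACYBP and SUGT1. It was at 274, 110.3, 69.4 and 41.7 CPM in controls A1, B1, C1 and C6 and at 154, 135, 55.5 and 79.5 CPM in RoraEKO A3, B4, C2 and C3. The controls spanned the whole RoraEKO range (log2 fold change -0.23, SE 0.669, adjusted p = 0.903, quasi-likelihood test of edgeR). S100a1 (ENSMUSG00000044080, 90418340 to 90421848, minus strand), best known as a regulator of calcium handling in muscle, was at 123, 37.9, 16.8 and 17.4 CPM in controls A1, B1, C1 and C6. In RoraEKO A3, B4, C2 and C3 it was at 68.1, 49.4, 24.6 and 25.7 CPM. It followed the same order of letters as S100a6, with overlapping genotypes (log2 fold change -0.22, SE 0.763, adjusted p = 0.919, quasi-likelihood test of edgeR). S100a1 lies across S100a13 and Gm56783 on the other strand, and although the library kit was a stranded one, the strand setting of the counting is not given in the sources used here, so reads of these genes may not be fully separated. S100a13 itself was at 3.46 to 14.5 CPM in the controls and 3.52 to 9.01 CPM in RoraEKO.

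S100a14 (ENSMUSG00000042306, 90434082 to 90436144, plus strand), an epithelial member of the family, was the most even of the 10 genes, with its highest library 1.30 times its lowest. It was at 866, 723, 799 and 719.9 CPM in controls A1, B1, C1 and C6 and at 703, 714, 669 and 674 CPM in RoraEKO A3, B4, C2 and C3. Every RoraEKO library was below every control library, control C6 and RoraEKO B4 being the nearest pair. The separation rested on the scaling between libraries, since over raw library totals RoraEKO B4 was above control B1 and control C6. In scaled CPM S100a14 was 1 of 10 S100 genes with genotypes that did not overlap, against 12.9% of all genes tested. The means were 777 ± 69.8 and 690 ± 22.3 CPM (SD, n = 4 each), and the log2 fold change of -0.17 (SE 0.0681) did not pass the cutoffs (adjusted p = 0.587, quasi-likelihood test of edgeR). Its log2 fold change was below 0 in all 24 alternatives, from -0.23 to -0.09.

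S100a16 (ENSMUSG00000074457, 90444172 to 90450462, plus strand), which forms heterodimers with S100A14, was at 517, 449, 416 and 377 CPM in controls A1, B1, C1 and C6. In RoraEKO A3, B4, C2 and C3 it was at 469, 481, 383 and 411 CPM. The genotypes overlapped almost completely (log2 fold change -0.01, SE 0.124, adjusted p = 0.988, quasi-likelihood test of edgeR). S100a14 and S100a16 are neighbours, and their Pearson r of log2 CPM was 0.548 over the 8 libraries, whereas S100a16 with S100a6 gave 0.981.

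S100a10 (ENSMUSG00000041959, 93462213 to 93474510, plus strand) codes for p11, the partner of annexin A2 at the plasma membrane. It was at 89.8, 74.6, 73.7 and 42.9 CPM in controls A1, B1, C1 and C6 and at 61.6, 65.0, 37.8 and 47.5 CPM in RoraEKO A3, B4, C2 and C3. RoraEKO was lower within each letter, by differences of log2 levels of -0.54 in letter A, -0.20 in letter B and -0.41 in letter C, but control C6 lay among the RoraEKO libraries. The log2 fold change was -0.41 (SE 0.292, adjusted p = 0.435, quasi-likelihood test of edgeR) and stayed below 0 in all 24 alternatives. Anxa2 itself was at 395, 635, 543 and 531 CPM in controls A1, B1, C1 and C6 and at 454, 360.1, 434 and 438 CPM in RoraEKO A3, B4, C2 and C3. Its log2 fold change was -0.32 (adjusted p = 0.379), the lowest among the partners.

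S100a4 (ENSMUSG00000001020, 90511074 to 90513354, plus strand), known as a partner of non-muscle myosin and as a gene of motile, mesenchymal and immune cells, was at 10.8, 7.76, 19.7 and 8.63 CPM in controls A1, B1, C1 and C6. In RoraEKO A3, B4, C2 and C3 it was at 11.5, 6.82, 11.6 and 16.8 CPM. The means of 11.7 ± 5.47 and 11.7 ± 4.07 CPM (SD, n = 4 each) were alike (log2 fold change -0.01, SE 0.399, adjusted p = 0.999, quasi-likelihood test of edgeR). The genes most like it over the 8 libraries were Laptm5 (r 0.975), Coro1a (0.966) and Parvg (0.952), which are known from blood cells. The summed level of 6 macrophage and Langerhans cell markers was 75.7, 76.1, 154 and 54.7 CPM in controls A1, B1, C1 and C6, so control C1 was the highest library for that list as well as for S100a4. In RoraEKO A3, B4, C2 and C3 the sum was 61.1, 76.8, 68.1 and 74.7 CPM, an order that S100a4 did not follow, and the part of these cells in its level was not tested. S100a4 overlaps Gm42674 on the same strand.

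The other members were set beside the tested genes in the same way. Over the 8 libraries S100a1 was most like Psmd4 (r 0.996), a proteasome subunit, Foxc1 (0.988) and Smad7 (0.984), an inhibitor of TGF-beta signalling. S100a3 was most like Pitrm1 (0.993), Procr (0.988) and Tmbim1 (0.984), and S100a6 most like Slc37a3 (0.998), Csrp1 (0.989) and Bambi (0.989). S100a7a was most like Ctse (0.991), Rhog (0.990) and Krt72 (0.988), a keratin of the inner root sheath. S100a16 shared Csrp1 (0.996) with S100a6 and was followed by Aldh1a3 (0.994) and Micall2 (0.988). S100a10 was most like Gstp1 (0.984), Polr1d (0.980) and Mrpl52 (0.977), and S100a14 most like Sdccag8 (0.962), Zfp639 (0.959) and Imp3 (0.955). With the genotype means taken off, the closest gene was the same for S100a6 (Slc37a3), S100a8 (Crnn) and S100a16 (Csrp1). It became Serinc5 for S100a1 (0.996), the hair keratin Krt31 for S100a3 (0.999), Cc2d2a for S100a4 (0.979), Fhod3 for S100a7a (0.995), Ier5 for S100a9 (0.990), Polr2e for S100a10 (0.997) and Ppp1cc for S100a14 (0.985). These are again descriptions over 8 libraries, with no p.

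Of 7 other S100 genes listed, 2 passed the filter and neither was called. S100a11, a calcium sensor of keratinocytes that is also found in the cornified envelope, was at 463 to 823 CPM in the controls and at 588 to 834 CPM in RoraEKO (log2 fold change 0.01, adjusted p = 0.989, quasi-likelihood test of edgeR). S100a13 had a log2 fold change of -0.10 (adjusted p = 0.956). S100a5 and S100a7l2 were at 0 counts in all 8 libraries, which allows up to 3 counts in each, or 0.112 to 0.174 per 1000000 raw counts, and covers counting error only. S100z, below the filter, had 5, 4, 5 and 10 counts in controls A1, B1, C1 and C6 and 0, 3, 1 and 1 counts in RoraEKO A3, B4, C2 and C3, and it was not tested.

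All 11 intracellular partners and modifying enzymes passed the filter, none passed the cutoffs, 1 had an unadjusted p under 0.05 (18.2% of all genes), and their median log2 fold change was -0.11 (quasi-likelihood test of edgeR). Tgm1, the transglutaminase that cross-links proteins of the cornified envelope, had the highest value and was the gene with p under 0.05. It was at 365, 299, 219.8 and 314 CPM in controls A1, B1, C1 and C6 and at 417, 580.1, 511 and 439.9 CPM in RoraEKO A3, B4, C2 and C3. Every RoraEKO library was above every control library, and the log2 fold change of 0.70 (SE 0.187) did not pass the cutoffs (adjusted p = 0.0578, quasi-likelihood test of edgeR). It passed them in 7 of 24 alternatives, with adjusted p from 0.00325 to 0.536. The summed level of 4 markers of suprabasal keratinocytes (Krt1, Krt10, Flg and Loricrin) was 44328 to 69955 CPM in the controls and 85184 to 106392 CPM in RoraEKO, and its part in the Tgm1 level was not tested. Within that list the genotypes did not overlap in Krt1 (log2 fold change 0.70) and Krt10 (0.66) and overlapped in Flg (0.01) and Loricrin (-0.20), against 12.9% of all genes without overlap. None of the 4 passed the cutoffs, and among 24 alternatives Krt10 passed in 3 and Krt1 in 1. Padi3, which codes for the enzyme that citrullinates S100A3, had a log2 fold change of 0.01 (adjusted p = 0.999).

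Levels were compared between genes per kb of the canonical transcript. In the controls S100a3 had the highest mean level, 1620 ± 1559 CPM per kb (SD, n = 4), and its range of 548 to 3935 overlapped that of S100a14, which was next at 673 ± 60.5. S100a16 followed at 380 ± 51.4 CPM per kb, below the lowest control value of S100a14, 624. S100a6 was at 159 ± 133 CPM per kb, with a range that reached from 53.5 to 351 and into that of S100a16. S100a7a at 81.6 ± 56.1 and S100a1 at 59.1 ± 61.2 CPM per kb overlapped it, and the lowest S100a1 value, 20.3, lay within the range of S100a4. S100a4 (23.3 ± 10.9), S100a10 (20.5 ± 5.75) and S100a8 (17.2 ± 12.3) also overlapped one another, and S100a9 was the lowest at 4.17 ± 2.72 CPM per kb, with a range of 2.15 to 8.18 that overlapped that of S100a8. In RoraEKO S100a9 was at 37.0 ± 46.6 CPM per kb, above the means of S100a4, S100a10 and S100a8, with a range of 6.62 to 106. That place rested on RoraEKO B4: without it, the S100a9 mean was 13.8 ± 6.34 CPM per kb (SD, n = 3), below those of S100a4 (26.5), S100a8 (18.0) and S100a10 (14.3). Per kb of all exons joined, the order of the 10 genes in the controls was the same except that S100a7a stood above S100a6.

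The 10 genes together came to 0.156% to 0.504% of a library in scaled counts, which is not the share of its raw counts. S100a3 made up 15.0% of this sum in RoraEKO C2 and 55.5% in control A1. The sum was highest in control A1, at 5045 CPM, and lowest in RoraEKO C2, at 1564 CPM.

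The libraries were then described by the letter of their title. The fitted difference between letter C and letters A and B was larger in size than that between genotypes in 8 of the 10 genes, the exceptions being S100a9 and S100a14, and this contrast of sizes was not tested. In 5 of 10 genes (S100a1, S100a6, S100a7a, S100a8 and S100a16) all 4 letter C libraries were below all 4 libraries of letters A and B, against 5.69% of all genes tested. For S100a16 this separation rested on the scaling between libraries, since over raw library totals RoraEKO A3 fell below control C1. The libraries with Xist, control C1 and control C6, are both in letter C, so the letter and Xist cannot be fully told apart. The mean of S100a1 was 69.7 ± 37.9 CPM in letters A and B and 21.1 ± 4.65 CPM in letter C (SD, n = 4 each). For S100a6 the means were 168 ± 72.5 and 61.5 ± 16.5 CPM, for S100a7a 227 ± 84.9 and 111 ± 28.2 CPM, and for S100a8 12.4 ± 2.08 and 5.27 ± 2.29 CPM.

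With genotype kept in the model, letter C minus letters A and B was -1.73 for S100a1 (SE 0.4, adjusted p = 0.0664), -1.44 for S100a6 (0.347, adjusted p = 0.0664), -1.31 for S100a8 (0.341, adjusted p = 0.0664), -1.52 for S100a3 (0.571, adjusted p = 0.0973) and -1.04 for S100a7a (0.336, adjusted p = 0.0918) on the log2 scale in the quasi-likelihood test of edgeR. The SEs in brackets are those of the difference of mean log2 CPM between the letters, with genotype left out. The gene with the opposite sign was S100a4, at 0.62 (adjusted p = 0.213), and the median over the 10 genes was -1.18, against 0.01 over all genes tested. None of the 10 genes passed an adjusted p of 0.05, where the share of all genes was 0%. At an unadjusted p under 0.05 there were 7 of 10, against 24% of all genes. This comparison was made after the values had been seen, DESeq2 was not run on it, and the call moved with single libraries. Without the letter B libraries S100a1, S100a3, S100a6, S100a7a and S100a8 passed an adjusted p of 0.05, as did 8.22% of all genes, and without control B1 the same 5 genes passed, as did 5.74% of all genes. S100a1 alone of the 10 passed without control A1, where the share of all genes was 0.068%, and with library size as the only scaling, where it was 1.03%.

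**Figure D3:**
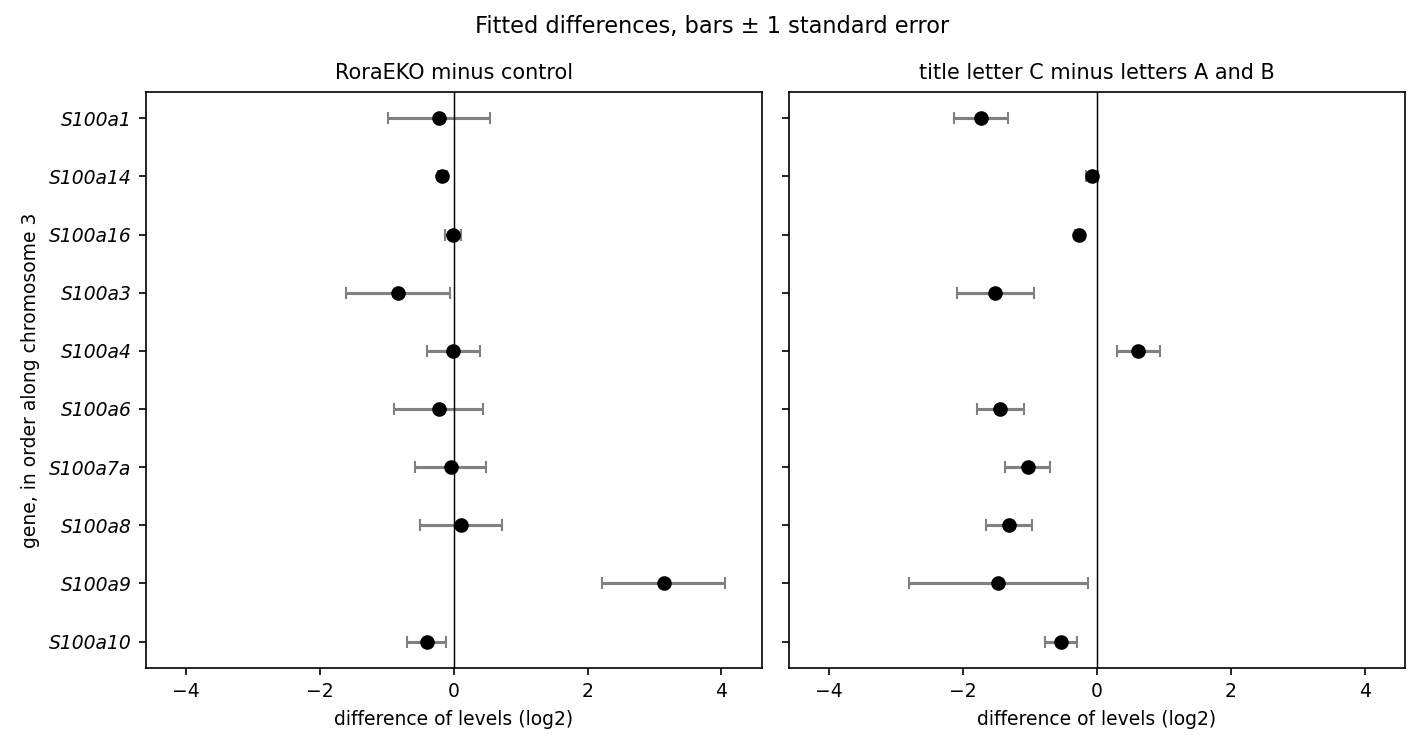
Fitted differences of levels for the 10 S100 genes on the log2 scale, with bars of 1 standard error: RoraEKO minus control (left) and title letter C minus letters A and B (right). The bars come from the difference of mean log2 CPM and not from the fit, and those on the right leave genotype out. By genotype S100a9 stands apart at 3.14 with a standard error of 0.921, whereas by letter 9 of the 10 genes lie below 0.

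Hair keratins are given beside the letter difference. The 7 hair shaft and cuticle keratins had letter differences below 0 in 7 of 7, against 6455 of all 13147 genes tested. An unadjusted p under 0.05 was found in 5 of them, where the share of all genes was 24% (quasi-likelihood test of edgeR). None passed an adjusted p of 0.05, and in all 7 keratins the letter C libraries overlapped those of letters A and B. Their summed level was 2070 to 5773 CPM in letters A and B and 1384 to 2638 CPM in letter C, and these ranges overlap. Pearson r of log2 CPM with the log2 hair keratin sum over the 8 libraries was 0.958 for S100a7a, 0.887 for S100a6, 0.883 for S100a1, 0.833 for S100a16, 0.748 for S100a8 and 0.740 for S100a3. It was 0.536 for S100a10, 0.401 for S100a14, 0.374 for S100a9 and 0.027 for S100a4. The libraries differ in depth and in the levels of cell type markers, and the part of hair follicle content in the letter difference was not tested. S100a13 (-1.24, adjusted p = 0.0715), Padi3 (-1.33, adjusted p = 0.0674) and Ager (-1.49, adjusted p = 0.0973) also had all 4 letter C libraries below the others. In the opposite direction, all 4 letter C libraries were above the others in Ahnak, a large scaffold bound by S100A10 (0.46, adjusted p = 0.121), and in the myeloid markers Itgam (0.63, adjusted p = 0.133) and Adgre1 (1.62, adjusted p = 0.0973), against 5.16% of all genes. Adgre1 was 1 of 6 macrophage and Langerhans cell markers, and the other 5 overlapped between the letters. Their differences were 0.81 for H2-Aa, 0.56 for Cd207, 0.22 for Cd74, 0.01 for Csf1r and -0.53 for Cd68. Of the 6, 2 had an unadjusted p under 0.05 (quasi-likelihood test of edgeR), against 24% of all genes. The median letter difference was 0.08 over the 11 partners and 0.04 over the 8 receptors tested.

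**Figure D4:**
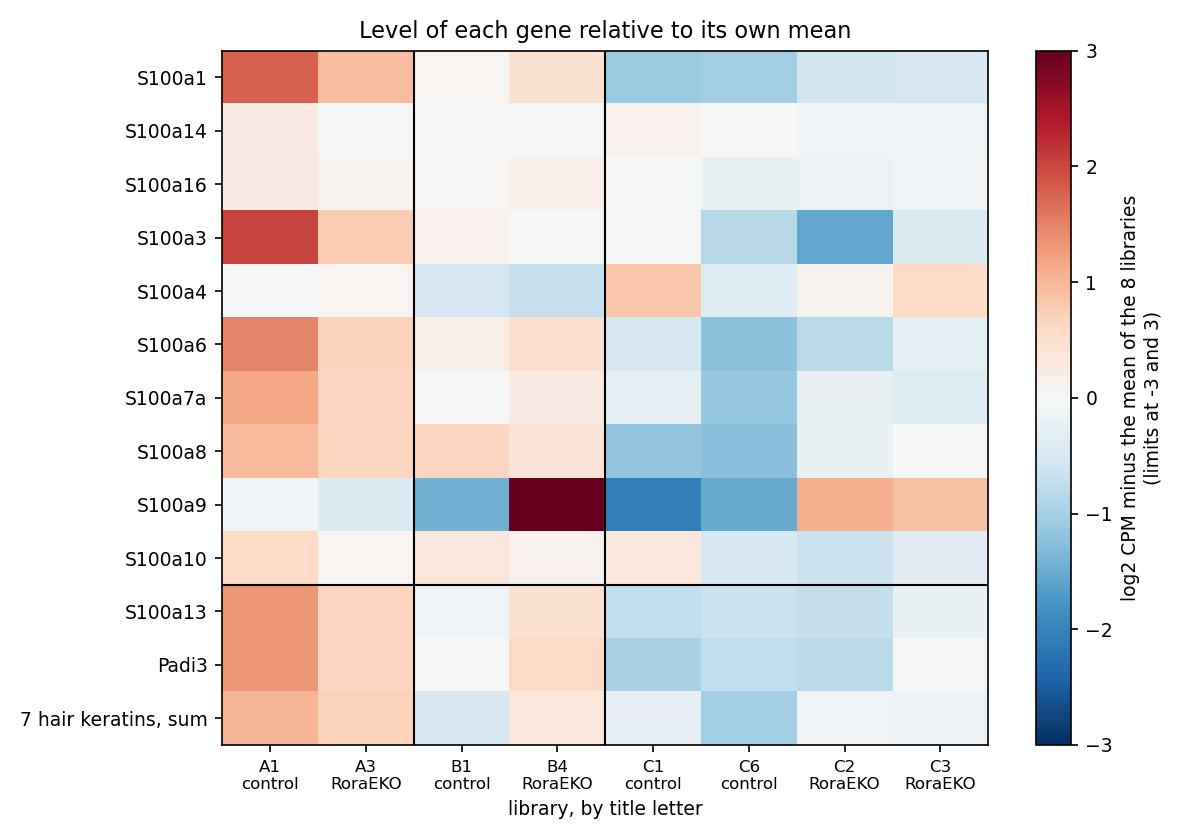
Level of each gene in each library relative to the gene's own mean of log2 CPM over the 8 libraries (colour scale in log2 units, red above and blue below the mean), ordered by title letter, with the 10 S100 genes above the line and S100a13, Padi3 and the sum of 7 hair keratins under it. Red stands with letter A and blue with letter C in S100a1, S100a3, S100a6, S100a7a and S100a8, whereas S100a9 is red in RoraEKO B4, C2 and C3.

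Whether the effect of genotype differed between letter C and letters A and B was tested with an interaction term. None of the 10 genes passed an adjusted p of 0.05 (quasi-likelihood test of edgeR), against 0.0152% of all genes, and 1 had an unadjusted p under 0.05, against 1.54% of all genes. This gene was S100a8, whose RoraEKO minus control difference of log2 levels was -0.31 in letter A, -0.27 in letter B and 1.10 in letter C (interaction 1.42, adjusted p = 1.0). With the letter C libraries alone, 2 against 2, S100a8 (log2 fold change 1.12, adjusted p = 0.0452) and S100a9 (2.72, adjusted p = 0.00462) were the 2 of 10 genes past the cutoffs, where 4.19% of all genes were called (quasi-likelihood test of edgeR). The letter C controls are the libraries with Xist, and the letter C RoraEKO libraries lack it, so within letter C genotype and the Xist difference cannot be told apart. Without control C1 and control C6 the log2 fold change of S100a8 was -0.52 (adjusted p = 0.368) and that of S100a9 2.74 (adjusted p = 0.283). For S100a9 the difference between RoraEKO and control was -0.30 in letter A, 4.97 in letter B and 2.68 in letter C on the log2 scale.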

How the data were processed

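The authors mapped trimmed read pairs to build GRCm39 (STAR 2.5.3a), and RSEM gave the expected counts, which they deposited as 1 unscaled table of 55416 Ensembl genes. The annotation release they used is not given in the sources used here. Of the identifiers, 54749 were found in GENCODE release 39. The deposited counts were rounded to whole numbers, genes were filtered with filterByExpr (13147 left) and scaled by TMM, and the genotype comparison used the quasi-likelihood test (legacy form) of edgeR 4.0.16 in R 4.3.3, over all 8 libraries, with no covariate, as the study's methods name none. Levels are CPM after TMM scaling. Standard errors were computed from log2 CPM with a prior count of 2. Library totals of 17286903 to 26705533 counts put a floor of 3 counts at 0.112 to 0.174 per 1000000 raw counts. Confidence in single values is limited by 4 libraries per genotype.

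The members, the lists of receptors, partners and cell type markers, and the tests were chosen with earlier results of these data known. All members are named. From the lists of other S100 genes, receptors and partners, those past the cutoffs or not overlapping between genotypes, Anxa2, Ager, Tlr4 and the highest and lowest log2 fold change are named, and for each member the 3 genes with the most similar log2 CPM. The rule also took 3 with the genotype means taken off, of which the first is named. Other list genes and cell type markers that are named, such as Padi3 and Cd36, were chosen after their values were seen. The test of title letter C against letters A and B, and fits without letter A or letter B, were added after seeing the data. Alternatives were RLE factors, library size alone, DESeq2 1.42.0, other edgeR tests, other filters and cutoffs, the title letter as a block, Xist as a covariate, letter C alone, letters A and B alone, both Xist-positive controls left out, and each library left out. On simulated data for RoraEKO minus control, with 12959 genes tested, 90.5% of 190 changed genes were called and 4.44% of calls were unchanged genes. These shares hold only for the size of difference put into those data. Differences near the cutoff of 1.5-fold were not tested in this way. Plots were drawn with matplotlib 3.10.9. Protein sequences were not used here.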

Additional observations from a re-analysis of the deposited data

Results flagged for a closer look

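In 20 groups of 4 libraries (10 genes in each genotype), 2 held a library far from the other 3 by Dixon's criterion, which flags about 1 group in 20 by chance. S100a3 was at 2802 CPM in control A1, and its gap to the next control library was 0.848 of the range of the 4 control libraries, above the critical value for 4 samples. S100a9 was at 60.9 CPM in RoraEKO B4, with a gap of 0.881 of the range of the 4 RoraEKO libraries.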

How the results depend on the processing

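With the quasi-likelihood test of edgeR none of the 10 genes passed the cutoffs by genotype. The count became 1 (S100a9) with DESeq2, the likelihood ratio test, the exact test, all genes with at least 1 count, and without letter A, and 2 with letter C alone. Leaving out 1 library gave 0 to 1 genes past the cutoffs, the 1 being S100a9 without control A1 or without RoraEKO A3. For the letter difference the count of 0 became 1 (S100a1) with library size alone (1.03% of all genes) and 5 without letter B (8.22%), and 0 to 5 with 1 library left out, the 5 being without control B1 (5.74%). The genotype by letter count stayed at 0 in its 11 alternatives. Of 240 fold changes under alternatives 45 turned sign, none of them past the cutoffs in either direction, and the cause was not tested. S100a1 became 0.15 with the title letter as a replicate block, 0.55 with letter C alone and 0.48 without letter A. S100a6 became 0.0071, 0.28 and 0.29 and S100a7a 0.11, 0.36 and 0.31 in the same order, and S100a7a 0.016 with all genes of at least 1 count. S100a4 became 0.028 with RLE factors, 0.028 with DESeq2, 0.043 with all genes of at least 1 count, 0.33 with Xist as a covariate, 0.38 without controls C1 and C6, 0.0058 with letter C alone, 0.045 with letters A and B alone and 0.033 without letter B. S100a8 became -0.61 with Xist as a covariate, -0.52 without controls C1 and C6 and -0.23 with letters A and B alone. S100a16 became 0.020 with RLE factors and with DESeq2, 0.045 with all genes of at least 1 count, 0.0012 with letter C alone, 0.047 with letters A and B alone and 0.042 without letter A. With 1 library left out the log2 fold changes ran from -0.51 to 0.80 for S100a1, -1.23 to 0.10 for S100a3, -0.23 to 0.36 for S100a4, -0.48 to 0.52 for S100a6, -0.27 to 0.53 for S100a7a, -0.15 to 0.56 for S100a8 and -0.061 to 0.12 for S100a16. The deviations of same-letter control and RoraEKO libraries from their genotype means correlated at 0.483 in letter A, 0.0498 in letter B and 0.131 to 0.436 in letter C, and since letter B was under 0.1 the letters were not taken as pairing the libraries. With the letter as a block 0 of 10 genes were called, and S100a9 was at 2.56 (adjusted p = 0.0648, quasi-likelihood test of edgeR). Library size alone moved the median of all genes from -0.04 to -0.10.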
